A study of Homo sapiens with 6 samples.

Results

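Transcripts of 7 enzymes that make or remove 2-hydroxyglutarate were followed in 786-O cells. This established line comes from a human clear cell renal carcinoma and lacks functional VHL. The members were chosen by gene symbol, from what the enzymes do, with earlier results of these data known. They are D2HGDH, ADHFE1, IDH1, IDH2, MDH1, MDH2 and LDHA, or 7 of the 61860 genes in the deposited tables. The cells stably carried either a short hairpin RNA (shRNA) directed at METTL3, which encodes the catalytic part of the complex that places N6-methyladenosine (m6A) on mRNA, or a control shRNA. Each group held 3 libraries, called A, B and C here after the letters of the deposited columns. All 6 libraries are of the same line, and the labels give no clone, passage or second METTL3 shRNA. Separate cultures for the libraries of 1 group are not stated, and a p-value therefore reflects the spread among these libraries, which may be technical.

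2-Hydroxyglutarate is a reduced form of 2-oxoglutarate, and its D and L forms are made and removed by separate enzymes. The D form is made by mutant isocitrate dehydrogenases and, at low rates, by the transhydrogenase ADHFE1, and it is oxidised back to 2-oxoglutarate in mitochondria by the flavoprotein D2HGDH. The L form arises when malate and lactate dehydrogenases reduce 2-oxoglutarate in place of their usual substrates, a side reaction favoured by low oxygen and acid. Both forms can inhibit dioxygenases that use 2-oxoglutarate, and renal cancers with a high content of the L form are the subject of the study. RNA levels of these enzymes say nothing of the metabolite, which was not analysed here.

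Total counts ran from 100534896 to 101473388 in METTL3 shRNA libraries and from 102420127 to 103624456 in control shRNA libraries. METTL3 received 956 to 1145 counts in METTL3 shRNA libraries and 3874 to 4141 in control shRNA libraries (log2 fold change −1.80, SE 0.08, edgeR adjusted p = 1.45e-07), and exons of METTL3 overlap TOX4 on the opposite strand. Per the labels the cells are epithelial. Of 12 renal and 786-O markers 2 were under 1 FPKM in every library, the epithelial adhesion genes CDH1 and EPCAM. KRT8, KRT18, CDH2 and EPAS1 overlapped in range between the groups, and the remaining markers differed in both directions. The nephron lineage factor PAX8 stood at 86.8 to 109 FPKM in METTL3 shRNA libraries and at 73.2 to 84.3 FPKM in control shRNA libraries, but its relative PAX2 at 11.1 to 12.9 FPKM in METTL3 shRNA libraries and at 14.2 to 14.9 FPKM in control shRNA libraries. The intermediate filament gene VIM stood at 1408 to 1992 FPKM in METTL3 shRNA libraries and at 810.5 to 1048 FPKM in control shRNA libraries. The whole list summed to 2044 to 2705 FPKM in METTL3 shRNA libraries and to 1385 to 1680 FPKM in control shRNA libraries, and VIM was a large part of these sums. The 5 leukocyte, 4 endothelial, 5 fibroblast and 2 erythroid markers were each under 1 FPKM in every library. The fibroblast list summed to 0.42 to 0.92 FPKM in METTL3 shRNA libraries and 1.17 to 1.63 FPKM in control shRNA libraries, and the part of these markers in the results was not tested. Transcripts named for the mitochondrial genome took 7.8 to 8.5% of counts in METTL3 shRNA libraries and 4.2 to 4.7% in control shRNA libraries. Without them the 7 members kept their direction, and MDH2 alone crossed the threshold, at a log2 fold change of −0.25 as with them (edgeR adjusted p = 0.0512).

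METTL3 acts on adenosines in a short sequence context of which GGACT is the best known form, and the members' reference transcripts were searched for these letters on the sense strand. Every member held GGACT at least once, as did 91.3% of 13820 protein-coding transcripts compared. D2HGDH held 6 matches, IDH1 5, LDHA 4, ADHFE1 3, IDH2 and MDH2 2 each and MDH1 1. Per kilobase these were 2.29 in D2HGDH, 2.05 in IDH1, 1.66 in LDHA, 1.51 in ADHFE1, 0.91 in MDH2, 0.74 in IDH2 and 0.61 in MDH1, beside a median of 0.945 over all transcripts. The 25-base stretches around the match nearest to the stop codon are shown for 6 members, in GENCODE 29 transcripts on GRCh38, since this part of a transcript is where m6A is often found. Capitals mark GGACT.
D2HGDH: ctggttgaagGGACTgggagcccgc
IDH1: tcatgaccaaGGACTtggctgcttg
IDH2: tgaacaccacGGACTtcctcgacac
MDH1: tcatcctcagGGACTactttgcaat
MDH2: cccccaaggtGGACTttccccagga
LDHA: attttaagatGGACTgggaaaaaca
Counted from the first base of the stop codon, the match began at +124 in D2HGDH and +117 in LDHA, within the 3' UTR. In IDH2, IDH1 and MDH2 it lay in the coding sequence, at −52, −121 and −367 in this order of genes, and the match in MDH1 was in the 5' UTR, at −1277. The MDH1 match began at base 161 of its reference transcript, which starts 354 bases before the nearer RefSeq start site of the gene. By that start site the match would lie in the promoter, outside the transcript. Methylation was not measured, and a match is not a methylated site.

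Of the 7 members, IDH2, IDH1 and D2HGDH rose in METTL3 shRNA cells, MDH2 fell, and MDH1, LDHA and ADHFE1 did not pass the test (edgeR's quasi-likelihood test with Benjamini-Hochberg adjustment over 18740 genes, threshold 0.05). The isocitrate dehydrogenases changed most, by 70.7% for IDH2 and 52.7% for IDH1, while D2HGDH was 18.5% higher and MDH2 15.9% lower. All 7 members passed the filter on low counts. Over all genes tested 33.5% passed, 16.5% higher and 16.9% lower, and the groups did not overlap for 47.4%. For the members 3 were higher and 1 lower, and the groups did not overlap for 4 of 7. With so few members these counts do not set them apart from other genes. The even split over all genes held with TMM, whereas scaling by library size alone gave 1985 genes higher and 4727 lower, and limma on log2(FPKM + 1) gave 1591 higher and 3683 lower. Of the members 2 were then higher and 2 lower by library size, and 2 higher and 1 lower on FPKM. The median log2 fold change of the members was −0.09, beside −0.0030 over all genes tested. The absolute log2 fold change of all genes had a median of 0.25.

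The members differed far more among themselves in level than between the groups. Levels are compared per length, as deposited FPKM, fragments scaled by transcript length and library depth. LDHA, the muscle-type subunit of lactate dehydrogenase, was the most abundant, at 967, 909 and 1009 FPKM in METTL3 shRNA libraries A, B and C and at 1079, 1182 and 1061 FPKM in control shRNA libraries A, B and C. MDH2 followed with a mean of 202.5 FPKM in METTL3 shRNA cells and 261 FPKM in control shRNA cells, and MDH1 with 119 and 146 FPKM in the same order of groups. IDH2 and IDH1 came next, at means of 38.2 and 38.0 FPKM in METTL3 shRNA cells and 24.2 and 27.2 FPKM in control shRNA cells. These 2 genes overlapped in range within each group and could not be ordered. D2HGDH stood lower, at 7.42 to 7.57 FPKM in METTL3 shRNA libraries and 6.49 to 6.94 FPKM in control shRNA libraries. ADHFE1 was the lowest, at 0.54 to 0.69 FPKM in METTL3 shRNA libraries and 0.39 to 1.44 FPKM in control shRNA libraries. Apart from IDH2 and IDH1, neighbours in this order did not overlap in range in either group.

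**Figure D1:**
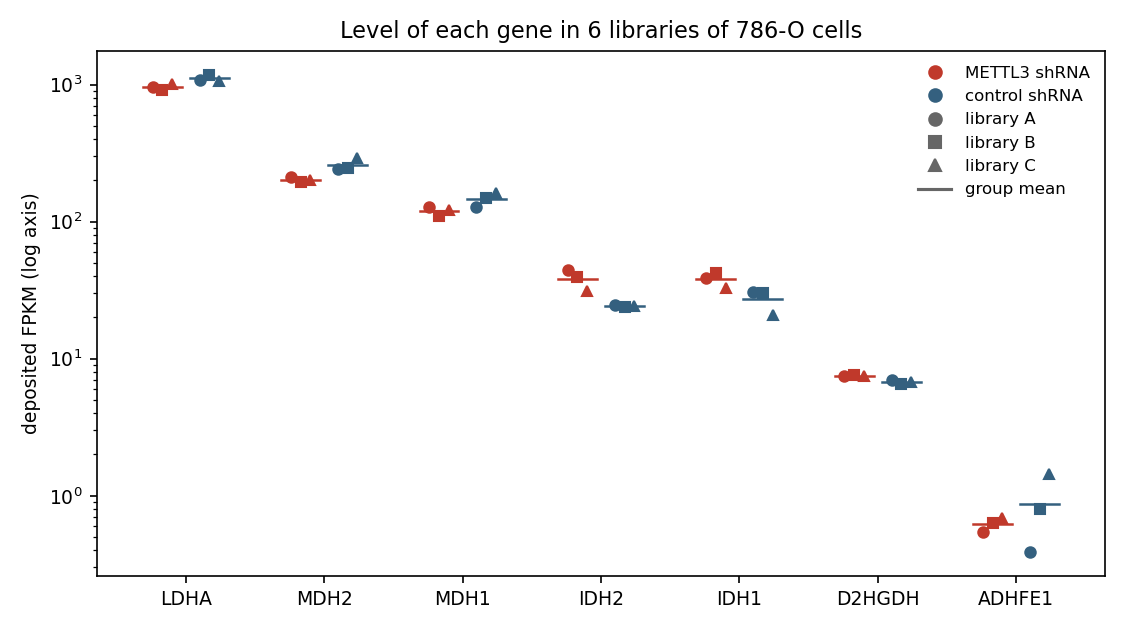
Deposited FPKM (log axis) of the 7 members in the 3 METTL3 shRNA libraries (red, left of each pair) and the 3 control shRNA libraries (blue). Circles, squares and triangles are libraries A, B and C, and lines are group means. The means span from 0.62 FPKM for ADHFE1 to 962 FPKM for LDHA in METTL3 shRNA cells, and IDH2 and IDH1 lie at the same height within each group.

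D2HGDH, which removes the D form, rose slightly. The gene (ENSG00000180902) lies on the plus strand of chromosome 2, chr2:241734579-241768816 in GRCh38, and its reference transcript has 10 exons. It received 1644, 1730 and 1731 counts in METTL3 shRNA libraries A, B and C, against 1608, 1509 and 1617 in control shRNA libraries A, B and C. As CPM, counts scaled by library total and TMM factor, the level was 17.5 ± 0.28 in METTL3 shRNA cells and 14.8 ± 0.65 in control shRNA cells (SD, n = 3 each). Every METTL3 shRNA library was above every control shRNA library on this scale. The log2 fold change was 0.24 (SE 0.08, edgeR adjusted p = 0.0282). The call was lost without METTL3 shRNA library A (edgeR adjusted p = 0.0572) or B (0.0849), or without control shRNA library B (0.112) or C (0.0689). It was also lost with no filter on low counts (edgeR adjusted p = 0.0523), on log2 FPKM with a pseudocount of 1 (limma adjusted p = 0.162) or 0.1 (0.145), and with scaling by library size alone, where the log2 fold change was 0.13 (edgeR adjusted p = 0.218). Exons of D2HGDH overlap unnamed loci on the opposite strand. The strand setting of the counting is unknown, so reads of such pairs cannot be told apart here or for the other overlaps given below.

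ADHFE1, which makes the D form from 2-oxoglutarate while oxidising 4-hydroxybutyrate, was scarce and no difference between the groups was detectable at this depth. The gene (ENSG00000147576) lies on chromosome 8 and its reference transcript has 14 exons. It received 59, 70 and 88 counts in METTL3 shRNA libraries A, B and C, against 73, 97 and 127 in control shRNA libraries A, B and C. The groups overlapped, and the log2 fold change of −0.31 had a 95% interval from −0.80 to 0.17 (edgeR adjusted p = 0.302). Its deposited FPKM did not follow its counts. Control shRNA library A had more counts than METTL3 shRNA library A but the lowest FPKM of all, at 0.39. The transcript length implied by counts over FPKM ran from 859 to 1806 bases between libraries for ADHFE1, a 2.10-fold range, against at most 1.08-fold for each other member. Exons of ADHFE1 overlap unnamed loci on the same strand.

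The ratio of this maker of the D form to its remover was followed within each library. ADHFE1 counts per D2HGDH count were 0.036, 0.040 and 0.051 in METTL3 shRNA libraries A, B and C, against 0.045, 0.064 and 0.079 in control shRNA libraries A, B and C. The groups overlapped, since control shRNA library A lay below METTL3 shRNA library C. The log2 difference of −0.54 had an exact two-sided permutation p of 0.2, or 0.8 adjusted over the 4 ratios tested. With 3 libraries against 3 the smallest p is 0.1, so this test could not pass 0.05 for any of the 4 ratios.

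IDH2, the mitochondrial NADP-dependent isocitrate dehydrogenase, rose most among the members. The gene (ENSG00000182054) lies on the minus strand of chromosome 15, chr15:90083045-90102504 in GRCh38, with 11 exons in its reference transcript and no exon shared with another gene. It received 7853, 7551 and 5711 counts in METTL3 shRNA libraries A, B and C, against 4658, 4472 and 4499 in control shRNA libraries A, B and C. The control shRNA libraries lay close together, whereas METTL3 shRNA library C was well below A and B and still above every control shRNA library. The level was 72.6 ± 13.8 CPM in METTL3 shRNA cells and 42.5 ± 2.00 CPM in control shRNA cells (SD, n = 3 each). The log2 fold change was 0.77 (SE 0.12, edgeR adjusted p = 0.000397), and in absolute size it exceeded that of 90.4% of all genes tested. It passed under all 17 alternatives, between 0.62 and 0.92.

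IDH1, the cytosolic and peroxisomal enzyme with the same reaction, also rose. The gene (ENSG00000138413) lies on the minus strand of chromosome 2, chr2:208236227-208266074 in GRCh38, with 10 exons in its reference transcript. It received 6732, 7481 and 6008 counts in METTL3 shRNA libraries A, B and C, against 5495, 5396 and 3628 in control shRNA libraries A, B and C. Control shRNA library C was the lowest by a wide margin, and the groups did not overlap. The level was 69.4 ± 8.67 CPM in METTL3 shRNA cells and 45.5 ± 10.9 CPM in control shRNA cells (SD, n = 3 each). The log2 fold change was 0.61 (SE 0.15, edgeR adjusted p = 0.00669). Without control shRNA library C it was 0.42 and still passed (edgeR adjusted p = 0.0105). On FPKM the call was lost with a pseudocount of 0.1 (limma adjusted p = 0.0683) and without the FPKM filter (limma adjusted p = 0.173). The antisense gene IDH1-AS1, which overlaps IDH1 exons, had at most 22 counts in a library.

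The rise of IDH2 could not be told from that of IDH1. IDH2 counts per IDH1 count were 1.17, 1.01 and 0.951 in METTL3 shRNA libraries A, B and C, against 0.848, 0.829 and 1.24 in control shRNA libraries A, B and C. The highest value belonged to control shRNA library C, where IDH1 was low. The log2 difference of the ratio was 0.12 (exact two-sided permutation p = 0.6, adjusted p = 0.8 over the 4 ratios). It was 0.31 without control shRNA library C and 0.18 without METTL3 shRNA library C, but 0.03 without control shRNA library A, 0.02 without control shRNA library B and 0.04 without METTL3 shRNA library A.

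**Figure D2:**
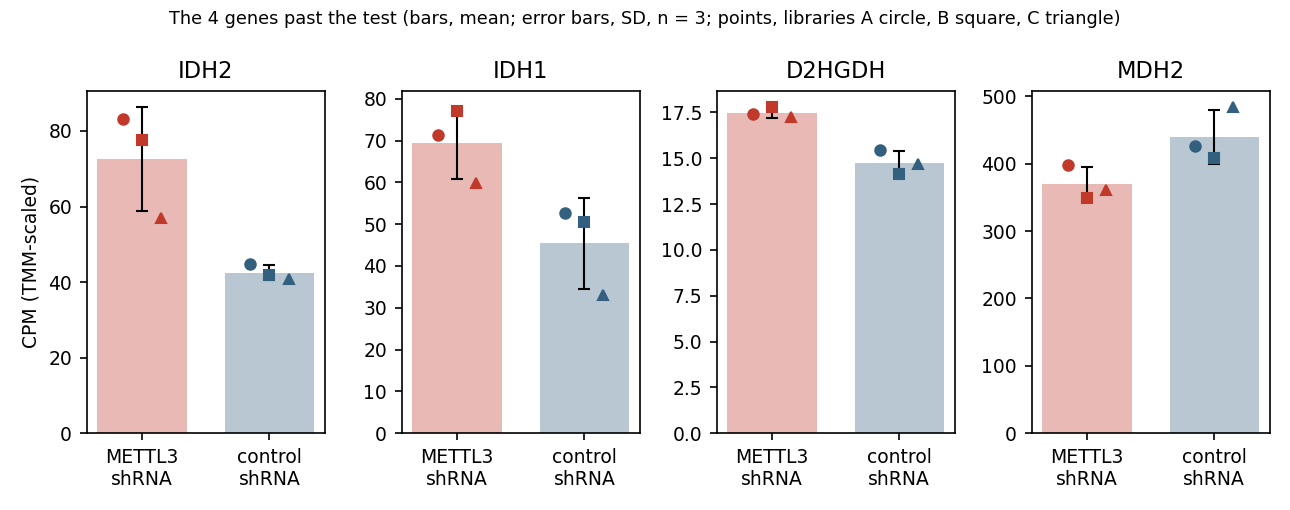
CPM (TMM-scaled) of the 4 members that passed the test, METTL3 shRNA left and control shRNA right in each panel. Bars are means, error bars SD (n = 3), and circles, squares and triangles are libraries A, B and C. In each panel all 3 METTL3 shRNA libraries lie on 1 side of the 3 control shRNA libraries, above them for IDH2, IDH1 and D2HGDH and below them for MDH2.

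MDH2, the mitochondrial malate dehydrogenase of the citric acid cycle, fell slightly. The gene (ENSG00000146701) lies on the plus strand of chromosome 7, chr7:76048051-76067508 in GRCh38, with 9 exons and no exon shared with another gene. It received 37663, 33972 and 36217 counts in METTL3 shRNA libraries A, B and C, against 44386, 43559 and 53337 in control shRNA libraries A, B and C. Control shRNA library C was the highest, and the groups did not overlap. The level was 370 ± 25.6 CPM in METTL3 shRNA cells and 440 ± 39.7 CPM in control shRNA cells (SD, n = 3 each). The log2 fold change was −0.25 (SE 0.09, edgeR adjusted p = 0.0494), just past the threshold. The call was lost with DESeq2-type size factors (edgeR adjusted p = 0.0529), without the mitochondrial transcripts (0.0512), on log2(FPKM + 1) without the FPKM filter (limma adjusted p = 0.0591), and without METTL3 shRNA library B (0.181) or C (0.0985) or control shRNA library A (0.0747), B (0.0583) or C (0.199), where the log2 fold change of these 5 fits ran from −0.30 to −0.18.

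MDH1, the cytosolic partner of MDH2 in the malate-aspartate shuttle, did not pass. The gene (ENSG00000014641) lies on chromosome 2, chr2:63588609-63607197 in GRCh38, and overlaps WDPCP on the opposite strand. It received 12796, 11181 and 12363 counts in METTL3 shRNA libraries A, B and C, against 13317, 15203 and 16685 in control shRNA libraries A, B and C. The counts of all 3 METTL3 shRNA libraries were lower, but after scaling METTL3 shRNA library A, at 135 CPM, lay above control shRNA library A, at 128 CPM. The log2 fold change was −0.18, with a 95% interval from −0.36 to 0.01 (edgeR adjusted p = 0.142). With scaling by library size alone, which moved the median of all genes to −0.11, MDH1 stood at −0.29 and passed (edgeR adjusted p = 0.0293).

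Within a library the ratio of the malate dehydrogenases does not depend on that scaling. MDH1 counts per MDH2 count were 0.34, 0.33 and 0.34 in METTL3 shRNA libraries A, B and C, against 0.30, 0.35 and 0.31 in control shRNA libraries A, B and C. The control shRNA libraries spanned all the METTL3 shRNA libraries. The log2 difference was 0.07 (exact two-sided permutation p = 0.4, adjusted p = 0.8 over the 4 ratios), or 0.03 without control shRNA library A and 0.14 without control shRNA library B.

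LDHA, which reduces pyruvate to lactate and can reduce 2-oxoglutarate to the L form, did not pass. The gene (ENSG00000134333) lies on the plus strand of chromosome 11, chr11:18394388-18408425 in GRCh38. It received 187189, 177005 and 196829 counts in METTL3 shRNA libraries A, B and C, against 214354, 232988 and 209517 in control shRNA libraries A, B and C. As a share of the library these were 0.186, 0.175 and 0.194% in METTL3 shRNA libraries A, B and C, and 0.207, 0.227 and 0.204% in control shRNA libraries A, B and C, with no overlap. After TMM scaling the groups overlapped, at 1922 ± 87.5 CPM in METTL3 shRNA cells and 2049 ± 141 CPM in control shRNA cells (SD, n = 3 each). The log2 fold change was −0.09, with a 95% interval from −0.29 to 0.11 (edgeR adjusted p = 0.472), and −0.20 with scaling by library size alone (edgeR adjusted p = 0.0645). LDHA has processed pseudogenes that could take its reads, of which LDHAP1, LDHAP3 and LDHAP7 had 0 counts and LDHAP2, LDHAP4 and LDHAP5 no more than 20 per library.

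LDHB, the heart-type subunit that forms tetramers with LDHA, stood at a log2 fold change of −0.10 (SE 0.08, edgeR adjusted p = 0.371). LDHA counts per LDHB count were 6.80, 6.86 and 7.63 in METTL3 shRNA libraries A, B and C, against 7.30, 7.26 and 6.60 in control shRNA libraries A, B and C. The log2 difference was 0.01 (exact two-sided permutation p = 1.0), and its sign turned without METTL3 shRNA library C or control shRNA library C.

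**Figure D3:**
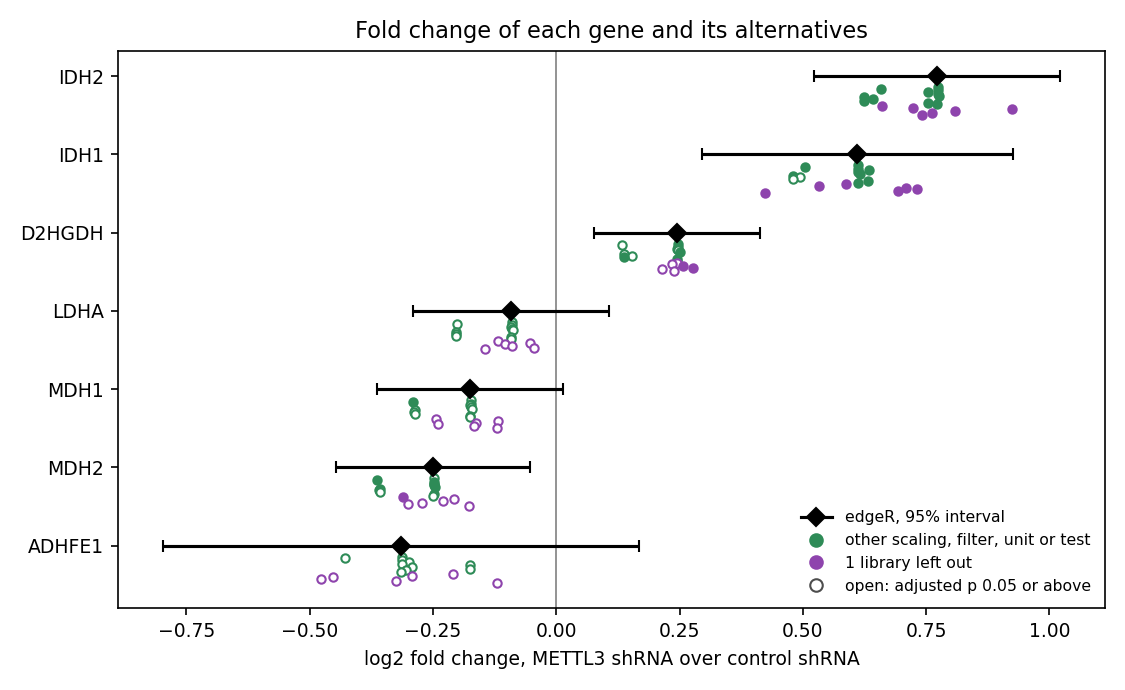
Log2 fold change of each member, METTL3 shRNA over control shRNA. Black diamonds are the edgeR estimates with 95% intervals, green points other scalings, filters, units and tests, purple points fits without 1 library, and open points an adjusted p of 0.05 or above. IDH2 stays past the threshold throughout, whereas D2HGDH and MDH2 keep their direction but cross it in 8 of 17 alternatives each.

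LDHA is a classical target of hypoxia-inducible factors, which bind sites built on letters such as ACGTG, so the members' promoters were searched for these letters on both strands. The promoters are RefSeq windows of 300 bases on GRCh38.p14, from 250 bases before to 50 after a start site, and 6 of the 7 members were used. Of 35116 windows in the table, 21.4% held ACGTG and 7.3% the E-box CACGTG, which contains it on both strands. LDHA held 5 matches to ACGTG, counted on both strands, in its window at chr11:18394313-18394612 (plus strand), and they included 2 CACGTG. IDH1 held 1 in its window at chr2:208254409-208254708 (minus strand), and the windows of D2HGDH, IDH2, MDH1 and MDH2 held 0, as did a further window each of IDH1 and LDHA. Both windows are shown because they are those of the members that held a match, and capitals mark ACGTG on either strand.
LDHA: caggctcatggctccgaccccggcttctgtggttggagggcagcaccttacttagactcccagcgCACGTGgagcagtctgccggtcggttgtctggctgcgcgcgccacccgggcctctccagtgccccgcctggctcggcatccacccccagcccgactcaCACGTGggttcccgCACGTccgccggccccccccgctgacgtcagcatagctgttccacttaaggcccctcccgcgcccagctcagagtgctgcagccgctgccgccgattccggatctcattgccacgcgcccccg
IDH1: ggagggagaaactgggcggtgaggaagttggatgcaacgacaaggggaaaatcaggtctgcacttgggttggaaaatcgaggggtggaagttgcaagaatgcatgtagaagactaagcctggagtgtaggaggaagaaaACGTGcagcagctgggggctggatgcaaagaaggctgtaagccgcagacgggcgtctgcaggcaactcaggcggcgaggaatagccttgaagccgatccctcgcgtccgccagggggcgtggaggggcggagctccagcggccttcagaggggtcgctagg
Counted from the start site, the match in IDH1 began at −111 and those in LDHA began between −185 and −73. The GC box GGGCGG, held by 45.0% of windows, occurred 6 times in D2HGDH and 2 times in this window of IDH1. It occurred 3 times in the further window of IDH1 and 4 times in the further window of LDHA. The remaining windows, with the LDHA window shown, held none. The start site of the IDH2 window lies 1883 bases downstream of the start of the gene's reference transcript, within the gene. The stretch before that transcript's start was therefore not searched. Each CACGTG of LDHA counts once on each strand, so its 5 matches lie at fewer places. Any part of these matches in the RNA levels was not tested. No binding was measured.

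Around the members, 45 genes were read out that supply or oxidise 2-oxoglutarate, dehydrogenate malate and lactate, carry these acids across membranes or accept electrons. Of these 42 were tested, 5 rose, 10 fell and 27 did not pass, with a median log2 fold change of −0.04. The share that passed, 35.7%, was close to the 33.5% of all genes tested. The split depended on scaling, with 2 higher and 15 lower by library size alone, and with 0 higher and 12 lower on log2(FPKM + 1) and on log2(FPKM + 0.1). PHGDH, LDHAL6A and LDHAL6B were too low to test, with at most 13 counts in a library. The number that passed was 9 without METTL3 shRNA library B. The single lists are short, and their counts below are read with that 33.5% in mind.

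Of 16 genes of 2-oxoglutarate supply, 1 rose, 4 fell and 11 did not pass (31.2% past the threshold, median log2 fold change 0.05). While the NADP-dependent isocitrate dehydrogenases rose, 2 of the 3 subunits of the NAD-dependent enzyme of the citric acid cycle fell. IDH3A, its catalytic subunit, had 48.1, 46.6 and 48.6 CPM in METTL3 shRNA libraries A, B and C and 67.6, 71.9 and 70.5 CPM in control shRNA libraries A, B and C (log2 fold change −0.55, SE 0.07, edgeR adjusted p = 0.000158). On this scale each group was tight and the groups lay far apart. As FPKM the control shRNA libraries spread more, at 27.6 to 37.9, against 19.3 to 21.5 in METTL3 shRNA libraries. IDH3B also fell (log2 fold change −0.30, SE 0.08, edgeR adjusted p = 0.0123, or 0.0655 without METTL3 shRNA library B), and IDH3G stood at 0.07 (SE 0.08). Exons of IDH3A overlap ACSBG1 and CIB2 on the opposite strand.

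The mitochondrial aspartate aminotransferase GOT2 fell (log2 fold change −0.24, SE 0.08, edgeR adjusted p = 0.0255) and the cytosolic aconitase ACO1 rose. The call of GOT2 was lost without METTL3 shRNA library B or C or control shRNA library B or C (edgeR adjusted p up to 0.117). That of ACO1 was lost without METTL3 shRNA library A or B or control shRNA library B or C (edgeR adjusted p up to 0.134), with scaling by library size alone (0.217) and in the 3 fits on FPKM.

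Of 4 genes of the 2-oxoglutarate dehydrogenase complex, 1 rose and 2 fell (median log2 fold change −0.09). OGDH, the subunit that binds 2-oxoglutarate, was 166 ± 5.36 CPM in METTL3 shRNA cells and 210 ± 14.4 CPM in control shRNA cells (SD, n = 3 each; log2 fold change −0.34, SE 0.08, edgeR adjusted p = 0.00576). DLD, its flavoprotein subunit, fell (−0.24, SE 0.08, edgeR adjusted p = 0.0363), and OGDHL, a relative of OGDH at under 5 CPM, rose (0.36, SE 0.12, edgeR adjusted p = 0.0379). The call of DLD was lost without METTL3 shRNA library A or B or control shRNA library A or B (up to 0.152), and that of OGDHL without any library but METTL3 shRNA library C (up to 0.145), with scaling by library size alone (0.138) and on log2(FPKM + 1), at a log2 fold change of 0.10 (limma adjusted p = 0.326).

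Of 9 tested genes in a list of other dehydrogenases, of lactate, malate and pyruvate, and fumarase, 1 rose and 1 fell (median log2 fold change −0.10). FH, the fumarase that makes malate for MDH2, was 72.7 ± 4.75 CPM in METTL3 shRNA cells and 91.0 ± 4.19 CPM in control shRNA cells (SD, n = 3 each; log2 fold change −0.33, SE 0.08, edgeR adjusted p = 0.00655). LDHD, a mitochondrial dehydrogenase of D-lactate, had the largest fold change of these lists (1.45, SE 0.36, edgeR adjusted p = 0.00808), at only 0.257 ± 0.040 CPM in METTL3 shRNA cells and 0.093 ± 0.033 CPM in control shRNA cells (SD, n = 3 each). On log2(FPKM + 1) without the FPKM filter it was 0.12 (limma adjusted p = 0.0435), a scale that understates the change of low genes.

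Of 10 carriers, 2 rose and 2 fell (40.0% past the threshold, median log2 fold change −0.04). The citrate carrier SLC25A1 had 32.3, 30.5 and 24.1 CPM in METTL3 shRNA libraries A, B and C, against 22.4, 22.5 and 19.1 CPM in control shRNA libraries A, B and C (log2 fold change 0.44, SE 0.11, edgeR adjusted p = 0.00747). As for IDH2, METTL3 shRNA library C was the lowest of its group. The call of SLC25A1 was lost on log2(FPKM + 1), at a log2 fold change of 0.29 (limma adjusted p = 0.0538, or 0.154 without the FPKM filter), and on log2(FPKM + 0.1) (0.0836). The dicarboxylate carrier SLC25A10 rose (0.24, SE 0.08, edgeR adjusted p = 0.0282), a call lost without METTL3 shRNA library A or B or control shRNA library B or C (up to 0.104), with scaling by library size alone (0.216), and on log2(FPKM + 1) (limma adjusted p = 0.0735) or log2(FPKM + 0.1) (0.0846). MPC1, a subunit of the mitochondrial pyruvate carrier, fell (−0.56, SE 0.12, edgeR adjusted p = 0.00447), as did the aspartate-glutamate carrier SLC25A12 of the malate-aspartate shuttle (−0.39, SE 0.09, edgeR adjusted p = 0.0051). Both calls were lost on log2(FPKM + 1) without the FPKM filter (limma adjusted p = 0.0689 for MPC1 and 0.0733 for SLC25A12). Exons of SLC25A12 overlap METAP1D and those of DLD overlap LAMB1 on the opposite strand, and SLC25A10 overlaps an unnamed locus on its own strand.

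D2HGDH passes its electrons to the electron transfer flavoprotein. Of the 3 genes of that route 0 rose and 1 fell (median log2 fold change −0.17). ETFA, the alpha subunit, had 93.4, 80.3 and 89.0 CPM in METTL3 shRNA libraries A, B and C, against 111, 117 and 119 CPM in control shRNA libraries A, B and C (log2 fold change −0.40, SE 0.08, edgeR adjusted p = 0.00202). ETFB stood at −0.09 (SE 0.10) and ETFDH at −0.17 (SE 0.09), and neither passed.

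**Figure D4:**
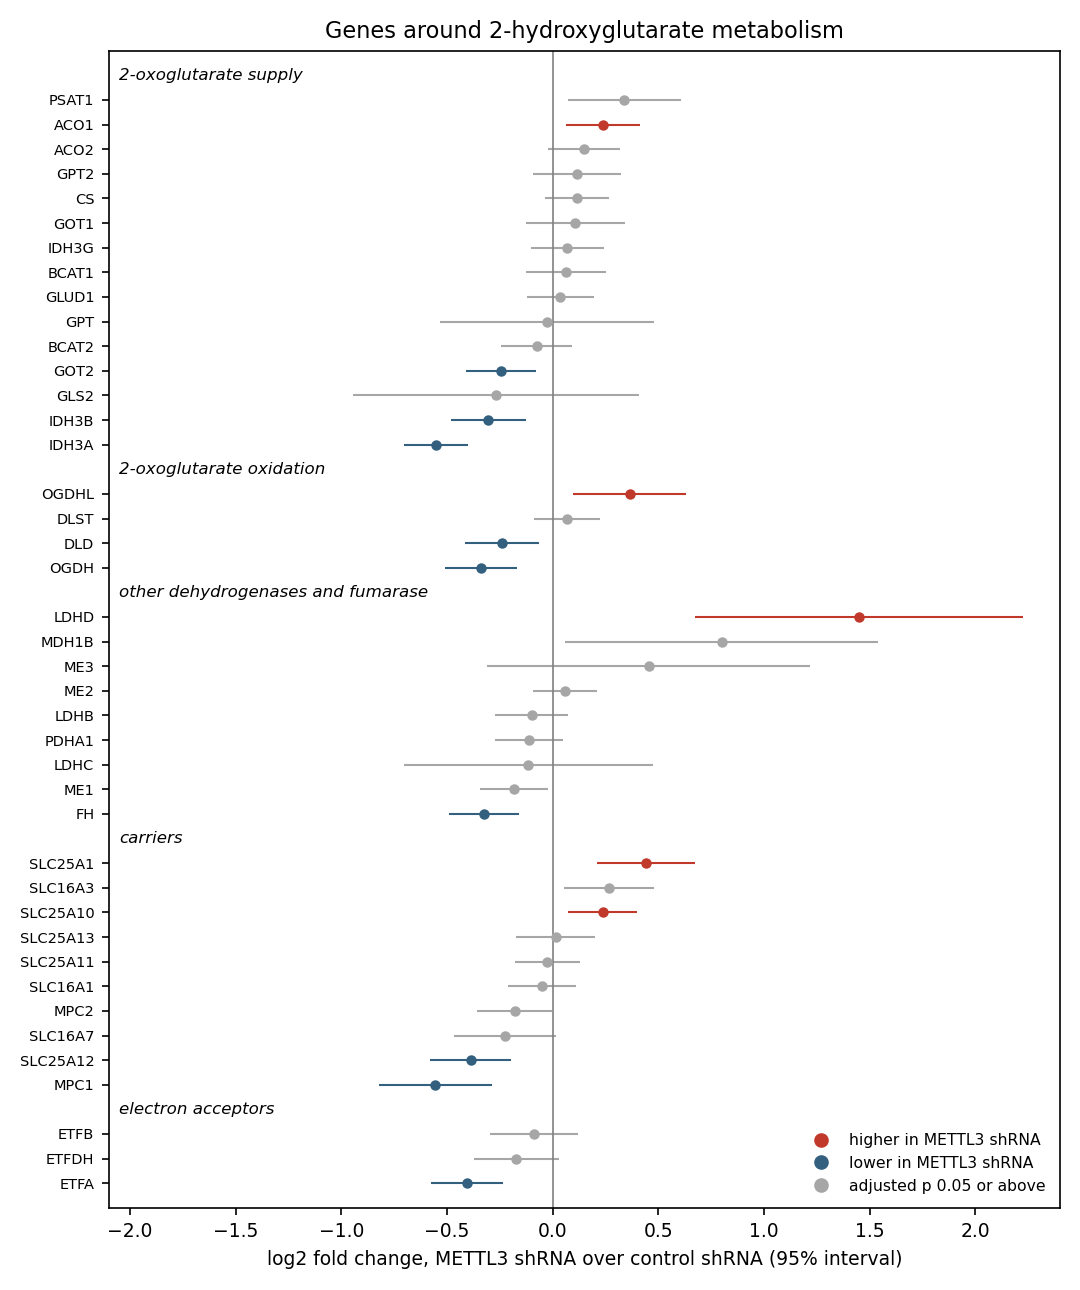
Log2 fold change, METTL3 shRNA over control shRNA, with 95% intervals for tested genes around 2-hydroxyglutarate metabolism, by list, leaving out 1 gene that is not reported here. Red genes rose, blue genes fell and grey genes did not pass. Of the genes plotted, MPC1 and IDH3A have the largest falls and LDHD the largest rise, with a wide interval.

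Among 10371 protein-coding genes of at least 5 CPM, those whose log2 CPM ran most like each member over the 6 libraries were named by Pearson correlation, as a description, since the points share libraries and the groups set much of the pattern. IDH2 ran most like CDT1 (r = 0.9992), SHMT1 (0.9978) and FANCG (0.9972). IDH1 ran most like RAB42 (0.9973), CBS (0.9973) and KCP (0.9960), and D2HGDH like PIGZ (0.9941), TAF6 (0.9937) and RALGDS (0.9935). MDH2 ran most like PHLDB3 (0.9942), LMF1 (0.9928) and SLC9A3R2 (0.9907), and MDH1 like NSUN6 (0.9939), BPGM (0.9882) and DCUN1D3 (0.9869). LDHA ran like MED6 (0.9825) and RAB1A (0.9812), and ADHFE1 like IRGQ (0.9946), AASDH (0.9896) and CAB39 (0.9802). Among the members themselves the highest r were 0.91 between D2HGDH and IDH2, 0.87 between MDH1 and MDH2 and 0.86 between IDH1 and IDH2 (n = 6 libraries). Negative values were as large in size, with −0.88 between IDH1 and MDH2 and −0.85 between IDH1 and ADHFE1.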

How the data were processed

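Libraries were made from rRNA-depleted total RNA and read as paired ends on DNBSEQ, per the labels' protocols. STAR 2.7.10b, Salmon and GRCh38 are listed in the submitters' processing notes, with no role. Annotation release and strand setting: not given in the sources used here. The authors deposited whole-number counts and FPKM for 61860 genes in 6 columns. The columns named for a control shRNA are the control group, and the other 3, which carry an unexplained number, are the METTL3 shRNA group by elimination, checked by METTL3. Column letters are not tied to replicate numbers. Same-group libraries differed by chi-square per degree of freedom of 16.5 to 62.8, so none was merged.

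Counts were filtered with filterByExpr (18740 genes), scaled by TMM and tested with edgeR 4.0.16 (R 4.3.3), quasi-likelihood, Benjamini-Hochberg at 0.05. SE and 95% intervals came from the F statistic. Alternatives used limma 3.58.1 and DESeq2 1.42.0. Fits were tested on simulated data. Ratios were of counts within a library. Positions, exons and transcripts came from GENCODE 29 (58308 identifiers found), promoters from RefSeq. Of a gene's coding transcripts, the reference was the basic, highest APPRIS, then longest.

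Members and lists were chosen with earlier results of these data known. The text names the members, their pseudogenes and antisense partners, up to 4 passing genes per list, and the 3 genes most like each member. Genes named beside these (LDHB, IDH3G, ETFB, ETFDH) complete a pair or complex and were chosen after their values were seen. Some genes that meet these rules are not reported here, though list counts include them.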

Additional observations from a re-analysis of the deposited data

How the results depend on the processing

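The number of members past the threshold was 4 with edgeR. Limma gave 2 on log2(FPKM + 0.1) and 2 on log2(FPKM + 1) without the FPKM filter. Between 2 and 3 passed when 1 library was left out. The number was 3 with DESeq2-type size factors, with no filter on low counts and without the mitochondrial transcripts. Limma on log2(FPKM + 1) with the FPKM filter also gave 3. Over all genes tested, 6270 passed, 3609 on log2(FPKM + 1) without the FPKM filter and 4012 to 6589 when 1 library was left out, and of the pathway genes 9 to 16 passed in those fits, against 15. Fits without 1 library hold fewer libraries, and the number depended on which was left out. Over all genes it was 6589 without METTL3 shRNA library C and 4012 without METTL3 shRNA library B. The cause of these changes was not tested. The 7 members kept the sign of their log2 fold change under every alternative run, and ADHFE1 could not be tested under the filter of 1 CPM. The log2 difference of the LDHA to LDHB ratio turned its sign in 2 of the fits without 1 library and ran from −0.044 to 0.038. Taking the column letter as a replicate block gave 4 members, 17 pathway genes and 6985 genes in all. Same-letter libraries deviated from their group means with correlations of 0.14 (A), −0.10 (B) and 0.37 (C), and libraries of different letters with −0.39 to 0.32. With so few libraries these values cannot decide whether the letters pair the samples. Depth limits ADHFE1 most, at 59 to 127 counts in a library.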
